A study of Mus musculus with 4 samples.

Results

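Interferon-stimulated genes were followed as a set of 42 genes, picked by symbol from the 36464 gene IDs measured in each library, and all 42 were found. The measurements were bulk RNA sequencing of CD8+ T cells enriched from tumours that had been grafted percutaneously into mice and treated with an antibody to SIGLEC15 or with IgG. Every animal was a male wild-type C57BL/6 mouse, and the grafts were taken on day 19 after 2 weeks of intraperitoneal injections, with 6 mice in each treatment. One group received control IgG and the other received anti-SIGLEC15. Cell pellets were mixed 3 at a time before sequencing, so each treatment has 2 libraries, called IgG 1, IgG 2, anti-SIGLEC15 1 and anti-SIGLEC15 2 here. No clone or dose of either antibody, age of the mice or tumour line is given in the sources used here.

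Cells sense interferons through surface receptors that activate JAK kinases and STAT proteins. Type I interferon signals mainly through a complex that contains IRF9 and binds the interferon-stimulated response element in front of antiviral genes. Interferon gamma, which activated CD8+ T cells secrete, signals mainly through the gamma-activated site and through IRF1, and it is a strong inducer of the guanylate-binding proteins and the immunity-related GTPases. Many genes of the set respond to both. The set was read here in roles: 4 transcription factors (Irf1, Irf7, Irf8, Irf9), 5 nucleic acid sensors, 16 antiviral effectors, 9 genes of the ISG15 system and other induced regulators, and 8 GTPases. For the contrast between the branches, 32 members were counted as antiviral and set against the 8 GTPases, with Irf1 and Irf8 in neither class.

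The binding elements that define the pathway could be read in front of many members. In RefSeq's promoter table for GRCm38.p6, 31 of the 42 genes had an entry, and the 250 bases before the start were searched on both strands. A minimal form of the interferon-stimulated response element, GAAA followed by any 2 bases and another GAAA, was present in 15 of the 31 members (48.4%) and in 936 of all 27025 genes in the table (3.46%). All 6 GTPases with an entry held this motif, as did 9 of 23 antiviral members (39.1%). The start used is RefSeq's. For Gbp2, Gbp3, Gbp5, Irgm1 and Ifitm2 the stretch around the motifs lay partly or wholly inside the gene as annotated in GENCODE M21. The letters TTCNNNGAA, used for the gamma-activated site, were present in 10 members (32.3%) and in 2197 genes of the table (8.13%), and the 2 motifs occurred together in 5 members, among them Oas1a, Gbp7 and Igtp. The motif strings can overlap each other in tandem copies, and a match is a description of the letters, not evidence of binding.

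The response element was in 9 of 23 antiviral members with an entry. The gamma-activated motif was in 5 of those 23 and in 3 of 6 GTPases, so single windows do not stand for a class. Windows from 7 members that hold a match are printed as examples, with matches to either motif in capitals and everything else in lower case. They are written 5′ to 3′ on the strand of the gene. Isg15, Ifit1, Ifit3 and Oas1a are antiviral members (chr4:156200860-156200911, minus strand; chr19:34640770-34640828, plus; chr19:34583358-34583431, plus; chr5:120907526-120907638, minus). Gbp7 and Igtp are GTPases (chr3:142530215-142530307 and chr11:58199496-58199546, both plus). Irf1 (chr11:53769909-53769947, plus) holds the gamma-activated motif only.
Isg15: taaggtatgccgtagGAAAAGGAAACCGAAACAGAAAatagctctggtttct
Ifit1: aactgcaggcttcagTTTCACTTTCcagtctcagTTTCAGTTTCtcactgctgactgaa
Ifit3: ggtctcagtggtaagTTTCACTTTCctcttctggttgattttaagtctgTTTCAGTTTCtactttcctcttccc
Oas1a: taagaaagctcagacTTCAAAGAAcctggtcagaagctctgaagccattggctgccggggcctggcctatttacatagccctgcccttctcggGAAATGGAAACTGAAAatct
Gbp7: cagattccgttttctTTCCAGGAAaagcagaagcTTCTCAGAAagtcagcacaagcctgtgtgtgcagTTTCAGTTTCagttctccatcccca
Igtp: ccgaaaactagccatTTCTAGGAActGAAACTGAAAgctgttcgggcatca
Irf1: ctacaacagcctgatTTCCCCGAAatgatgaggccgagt
In Isg15 the response elements run together as tandem GAAA repeats. Ifit1 and Ifit3 each carry a pair of separated copies that read on the opposite strand, as TTTCACTTTC and TTTCAGTTTC in both genes. Oas1a and Igtp hold one gamma-activated motif upstream of the response element, and Gbp7 holds 2. Irf7, Irf9 and Ifitm3 had entries with neither motif in the 250 bases.

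The 4 libraries held between 14854802 and 16026197 reads counted to genes, and values are RPKM (reads per kilobase of exon, scaled to the counted reads of the library). Of the 42 members, 39 reached 1 RPKM in at least 2 libraries and were tested among 12484 genes, with limma on log2(RPKM + 1), on which scale all fold changes stand. Mx2 (0.205 to 0.553 RPKM), Oas2 (0.159 to 1.37) and Ifi44 (0.0526 to 0.794) were below that level, and each was highest in IgG 1. Oas3 entered the test only through the anti-SIGLEC15 libraries, so its direction was set by the filter. The libraries are pools, so p-values measure only the spread between 2 pools a treatment, and a permutation test of 2 against 2 cannot go below p = 0.333. T cell RNA was plentiful: Cd8a, the CD8 alpha chain, was at 114.9, 351.4, 290.2 and 315.3 RPKM in IgG 1, IgG 2, anti-SIGLEC15 1 and anti-SIGLEC15 2 (the order used throughout), and Cd3e, a chain of the T cell receptor complex, at 11.03, 35.88, 31.37 and 30.19. IgG 1 was lowest for all 23 genes of a T cell identity list, whose summed level was 1582 RPKM there and 4802 to 5431 in the other libraries. It also had the highest sums for a list of hepatocyte and hepatoma genes (5948 RPKM against 1211 to 2567) and for neutrophil genes (905.5 against 83.4 to 375.3). Red cell genes separated the treatments: the 5 globin and heme genes of that list summed to 691.3 and 1929 RPKM in the IgG libraries and to 112.9 and 19.85 in the anti-SIGLEC15 libraries, though none of the 5 passed the limma test (adjusted p 0.9999). The part of red cell RNA in the values below was not tested.

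No member passed the test of anti-SIGLEC15 against IgG, and neither did any other gene (0% of 12484, limma, Benjamini-Hochberg adjusted p under 0.05). Among members, 3 of 39 had an unadjusted p under 0.05 (Irf7, Oas1a and Ifi27l2a), against 1.17% of all genes, or 146, and limma-voom on the recovered reads called none either, with 90 genes under that unadjusted p. In 12 of the 39 members (30.8%) both anti-SIGLEC15 libraries lay above both IgG libraries, an arrangement found in 12.1% of all genes tested. The reverse arrangement held for 0 members and for 6.02% of all genes. The 12 were Irf7, Irf9, Zbp1, Ifit3, Mx1, Oas1a, Oas3, Ifi27l2a, Parp14, Gbp3, Gbp4 and Gbp5. The median log2 fold change of the 39 was 0.22, with a range from −0.99 (Ifitm3) to 1.66 (Ifit3), and the median over all genes was 0.02. In bulk RNA, a larger share of cells expressing a gene and more of its RNA per cell cannot be told apart.

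**Figure D1:**
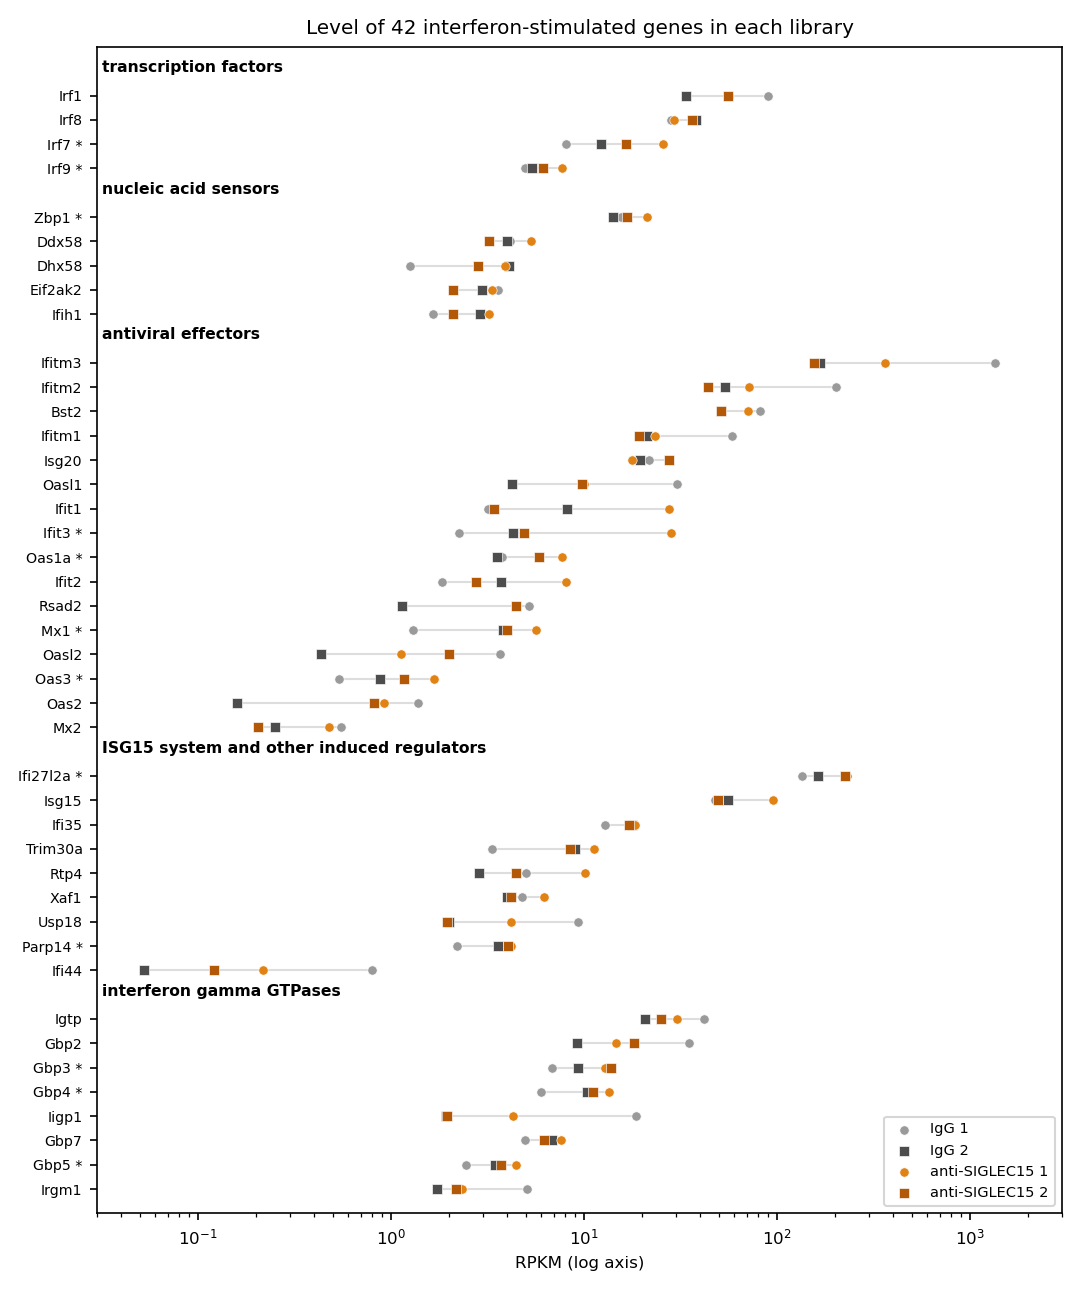
Level of each of the 42 genes in each of the 4 libraries, in RPKM on a log axis, ordered by mean level within each role. Stars mark the 12 genes for which both anti-SIGLEC15 libraries (orange) lay above both IgG libraries (grey), and Ifitm3 spans the widest part of the upper range, from 155.9 to 1346 RPKM.

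Among the transcription factors, Irf7 and Irf9 lay higher in both anti-SIGLEC15 libraries on the RPKM scale and Irf1 and Irf8 did not. On the T cell scale described below none of the 4 was separated and the log2 fold change of Irf9 was −0.27. Irf7 (ENSMUSG00000025498, chr7:141262706-141266481), which amplifies type I interferon production and is itself induced by it, was at 8.08, 12.29, 25.63 and 16.53 RPKM. The groups did not overlap, with 10.2 ± 2.98 RPKM under IgG and 21.1 ± 6.44 under anti-SIGLEC15 (mean ± SD, n = 2), a log2 fold change of 0.98 (SE 0.36). Its unadjusted limma p was 0.0383 and its adjusted p was 0.9999, the adjusted value of every member. Irf9 (ENSMUSG00000002325, chr14:55603571-55610030), the DNA-binding factor of the type I complex, was at 4.95, 5.36, 7.69 and 6.15 RPKM. Its groups also did not overlap, by a smaller margin (log2 fold change 0.36, SE 0.28). Irf7 overlaps Phrf1 on the opposite strand and Irf9 overlaps Rnf31 on its own, and whether the counting used strand is not given in the sources used here.

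Irf1 (ENSMUSG00000018899, chr11:53770014-53778374), a transcription factor induced by interferon gamma, with the gamma-activated motif printed above, was at 89.89, 33.76, 56.34 and 55.92 RPKM. The anti-SIGLEC15 libraries were nearly equal and lay between the IgG libraries (log2 fold change 0.02, SE 0.50). Without IgG 1, the log2 fold change of Irf1 was 0.72 with both anti-SIGLEC15 libraries above IgG 2, and without IgG 2 it was −0.67. Irf8, a factor of myeloid and lymphoid lineages that is also induced by interferon gamma, was at 28.4, 37.99, 29.19 and 36.18 RPKM, with replicate 2 above replicate 1 in both treatments (log2 fold change −0.02, SE 0.29).

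Of the 5 nucleic acid sensors, only Zbp1 was separated between the treatments. Zbp1 (ENSMUSG00000027514, chr2:173206612-173218923), a sensor of left-handed nucleic acids that can start necroptosis, was at 15.56, 14.08, 21.27 and 16.77 RPKM (log2 fold change 0.33, SE 0.28). It was the most abundant of the sensors. Ddx58, which encodes RIG-I, was at 4.12, 3.98, 5.34 and 3.21 RPKM, so that the 2 anti-SIGLEC15 libraries stood at either end. Ifih1, which encodes the double-stranded RNA sensor MDA5, Dhx58, a regulator of both, and Eif2ak2, the kinase PKR, stayed between 1.26 and 4.08 RPKM in every library, with overlapping groups. The median log2 fold change of the 5 sensors was 0.17.

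The effectors were divided in direction. Of the 14 tested, 8 had a positive and 6 a negative log2 fold change, and 7 were highest in IgG 1, 6 in anti-SIGLEC15 1, 1 in anti-SIGLEC15 2 and 0 in IgG 2. The tetratricopeptide genes Ifit1, Ifit2 and Ifit3, neighbours on chromosome 19 whose proteins bind foreign RNA, were high in one library. Ifit3 (ENSMUSG00000074896, chr19:34583531-34588731) was at 2.25, 4.29, 28.37 and 4.86 RPKM, from 63, 116, 777 and 126 reads. Its groups did not overlap, but anti-SIGLEC15 2 lay just above IgG 2 and anti-SIGLEC15 1 was 5.84 times anti-SIGLEC15 2 (log2 fold change 1.66, SE 0.81).

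Ifit1 (ENSMUSG00000034459, chr19:34640871-34650009) was at 3.17, 8.16, 27.68 and 3.42 RPKM, and Ifit2 at 1.84, 3.73, 8.11 and 2.74. For both, anti-SIGLEC15 2 was below IgG 2, and anti-SIGLEC15 1 exceeded anti-SIGLEC15 2 by 8.09 times for Ifit1 and 2.96 times for Ifit2. Without anti-SIGLEC15 1, the log2 fold change of Ifit1 was −0.48, against 0.87 (SE 0.97) with all libraries.

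Other effectors with non-overlapping groups differed less between the anti-SIGLEC15 libraries. Oas1a (ENSMUSG00000052776, chr5:120896256-120907521), an oligoadenylate synthetase that activates RNase L, was at 3.77, 3.56, 7.67 and 5.86 RPKM. The IgG libraries were within 1.06 times of each other and both anti-SIGLEC15 libraries were above them (log2 fold change 0.73, SE 0.29, unadjusted limma p 0.04998, adjusted p 0.9999). Oas3, of the same family, was low at 0.538, 0.876, 1.67 and 1.17 RPKM. Mx1 (ENSMUSG00000000386, chr16:97447035-97462907), a gene of the dynamin-like GTPase family, was at 1.30, 3.82, 5.64 and 3.98 RPKM. Its separation rested on a gap of 3.82 to 3.98 RPKM between IgG 2 and anti-SIGLEC15 2 (log2 fold change 0.79, SE 0.45).

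The membrane proteins of the Ifitm family, which hinder virus entry, ran the other way through one IgG library. Ifitm3 (ENSMUSG00000025492, chr7:141009586-141010770), the most abundant member of the whole set, was at 1346, 167.3, 363 and 155.9 RPKM. IgG 1 was 8.04 times IgG 2, and the SE of its log2 fold change of −0.99 was 1.05. Ifitm2 was at 201.4, 53.54, 71.29 and 43.68 RPKM (log2 fold change −0.89, SE 0.68), and Ifitm1, at 58.41, 21.21, 23.29 and 19.32 RPKM, was also highest in IgG 1. Without IgG 1 the log2 fold change of Ifitm3 was 0.51, and without IgG 2 it was −2.49. Oasl1, which represses translation of IRF7 (30.27, 4.23, 10.04 and 9.73 RPKM), its relative Oasl2 (3.68, 0.435, 1.13 and 2.00) and Rsad2, which encodes viperin (5.18, 1.15, 4.45 and 4.44), were likewise highest in IgG 1 and lowest in IgG 2. Bst2, which encodes tetherin, ranged from 51.44 to 81.26 RPKM and Isg20, a 3′ to 5′ exonuclease, from 17.64 to 27.58, both with overlapping groups.

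Genes of the ISG15 system and the other induced regulators had a median log2 fold change of 0.41, with 7 positive and 1 negative among 8 tested. Ifi27l2a (ENSMUSG00000079017, chr12:103442167-103443680), a small interferon-induced membrane protein and the second most abundant member, was at 134.1, 163.7, 231.4 and 225.9 RPKM. The anti-SIGLEC15 libraries were within 1.02 times of each other, with 148.9 ± 20.96 RPKM under IgG and 228.7 ± 3.89 under anti-SIGLEC15 (mean ± SD, n = 2; log2 fold change 0.62, SE 0.24, unadjusted limma p 0.0466, adjusted p 0.9999). Parp14, a mono-ADP-ribosyltransferase, was separated at a lower level, 2.20, 3.58, 4.19 and 4.02 RPKM (log2 fold change 0.42, SE 0.32); it overlaps the gene model Gm49730, so reads of the pair may not be told apart.

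Isg15 (ENSMUSG00000035692, chr4:156199424-156200818), a ubiquitin-like modifier, was at 47.75, 55.94, 95.88 and 49.6 RPKM. Only anti-SIGLEC15 1 stood out, and without it the log2 fold change of Isg15 was −0.06, against 0.41 (SE 0.39) with all 4. Usp18, the protease that removes ISG15 and dampens type I receptor signalling, was at 9.30, 2.01, 4.20 and 1.95 RPKM, which put it highest in IgG 1 instead. Rtp4, a receptor transporter protein (5.04, 2.84, 10.1 and 4.45 RPKM), Xaf1, an antagonist of the apoptosis inhibitor XIAP (4.78, 4.001, 6.24 and 4.19), and Trim30a, of the tripartite motif family (3.35, 9.03, 11.34 and 8.42), were each highest in anti-SIGLEC15 1, with overlapping groups. Ifi35, a leucine zipper protein that pairs with NMI, stayed between 12.79 and 18.41 RPKM.

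**Figure D2:**
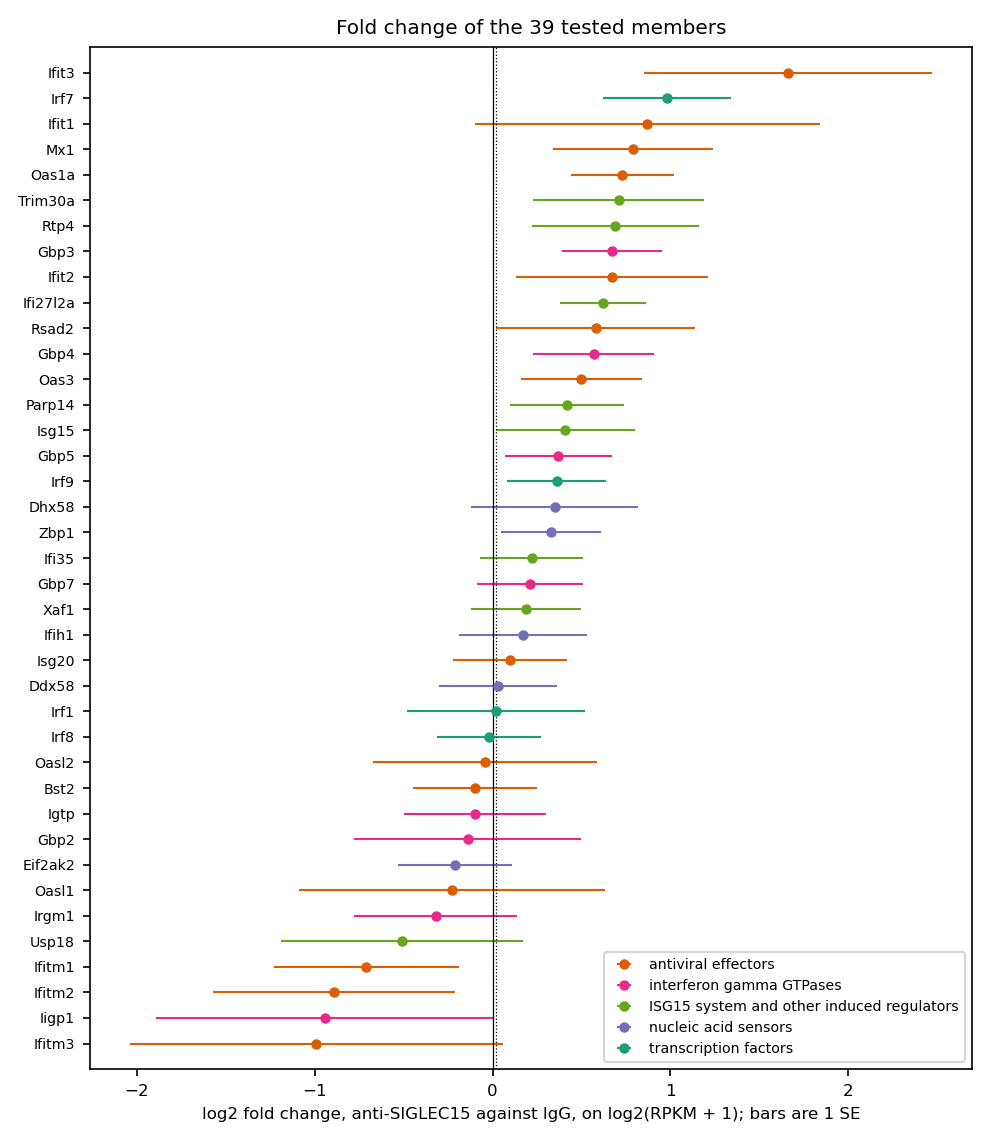
Log2 fold change of anti-SIGLEC15 against IgG for the 39 tested members, with bars of 1 SE, coloured by role; the dotted line is the median of all genes tested (0.02). Values run from −0.99 for Ifitm3 to 1.66 for Ifit3, and the widest bars belong to members with 1 library far above the rest.

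Guanylate-binding proteins and immunity-related GTPases attack the vacuoles and membranes of intracellular microbes. Of the 8 members of this role, 4 were highest in IgG 1, and 3 others, the guanylate-binding proteins Gbp3, Gbp4 and Gbp5, were higher in both anti-SIGLEC15 libraries. Gbp3 (ENSMUSG00000028268, chr3:142560026-142573209) was at 6.86, 9.28, 12.86 and 13.79 RPKM, with both anti-SIGLEC15 libraries above both IgG libraries (log2 fold change 0.67, SE 0.28, unadjusted limma p 0.0610, adjusted p 0.9999). Gbp4 was at 6.02, 10.41, 13.55 and 11.19 RPKM (log2 fold change 0.57, SE 0.34). Gbp5, which promotes inflammasome assembly, was at 2.44, 3.48, 4.43 and 3.73 RPKM (0.37, SE 0.30). The groups did not overlap for these 3, and IgG 1 was the lowest library for each. Guanylate-binding proteins are close paralogs and Gbp4 overlaps Gbp8 and Gbp9, so reads may be split among them in a way the deposited values do not show.

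Gbp2 (ENSMUSG00000028270, chr3:142620602-142638008), a guanylate-binding protein strongly induced by interferon gamma, was at 34.99, 9.198, 14.71 and 18.25 RPKM. The IgG libraries enclosed both anti-SIGLEC15 libraries (log2 fold change −0.14, SE 0.64); it was 0.77 without IgG 1 and −1.05 without IgG 2. Igtp, which encodes the GTPase Irgm3, showed the same order of IgG libraries at 42, 20.72, 30.31 and 25.07 RPKM. Irgm1, a GTPase needed for autophagic defence against intracellular bacteria, was at 5.08, 1.73, 2.35 and 2.17 RPKM (−0.32, SE 0.46). Iigp1, another immunity-related GTPase, was at 18.51, 1.94, 4.30 and 1.94 RPKM, and IgG 1 was 9.55 times IgG 2. Gbp7 ranged from 4.95 RPKM in IgG 1 to 7.64 in anti-SIGLEC15 1, with overlapping groups.

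Set against each other, the antiviral class had a median log2 fold change of 0.35 over 29 tested genes and the GTPase class one of 0.05 over 8, a difference of 0.30. Non-overlapping groups with anti-SIGLEC15 higher were found in 9 of 29 antiviral members and 3 of 8 GTPases, against 12.1% of all genes; on the T cell scale described below they were found in 1 of 29 and 0 of 8, against 2.69%. The mean log2(RPKM + 1) of the antiviral class minus that of the GTPases was −0.02, 0.34, 0.57 and 0.21 in the 4 libraries, so the IgG libraries enclosed anti-SIGLEC15 2. The difference between the class medians was −0.03 without IgG 1 and 0.50 without IgG 2. The classes were therefore not separated beyond the spread of the 2 IgG pools.

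Most members were highest in 1 of the replicate 1 libraries, whichever the treatment. Of the 39 tested members, 21 (53.8%) were highest in anti-SIGLEC15 1 and 14 (35.9%) in IgG 1, which left 2 each for IgG 2 and anti-SIGLEC15 2. Over all 12484 genes, 32.1% were highest in anti-SIGLEC15 1, 34.0% in IgG 1, 22.1% in IgG 2 and 11.8% in anti-SIGLEC15 2. By class, 18 of 29 antiviral members were highest in anti-SIGLEC15 1 and 9 in IgG 1, while 4 of 8 GTPases were highest in IgG 1 and 3 in anti-SIGLEC15 1. The response-element motif was present in 6 of 12 members highest in IgG 1 and 8 of 15 highest in anti-SIGLEC15 1, where a promoter entry existed.

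**Figure D3:**
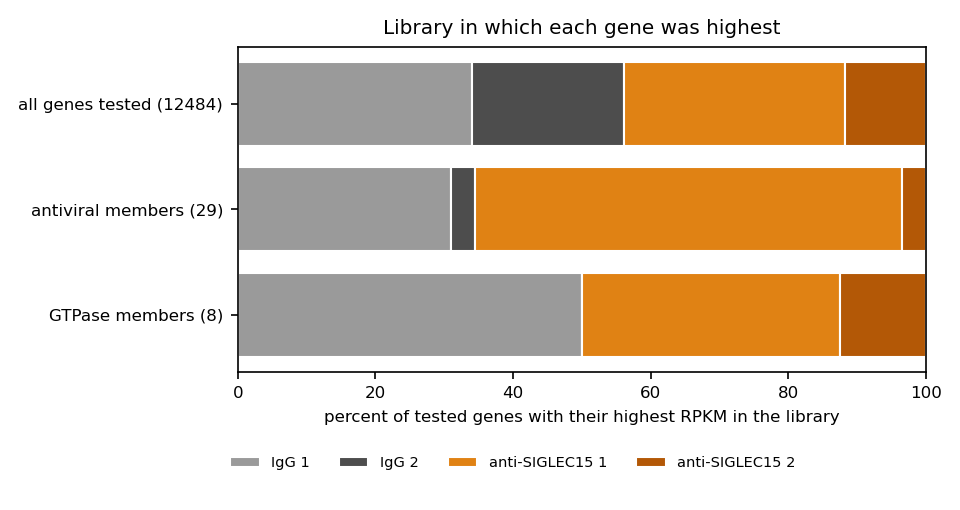
Percent of tested genes that had their highest RPKM in each of the 4 libraries, for all genes, the 29 antiviral members and the 8 GTPases. The bar of the antiviral members is filled mostly by anti-SIGLEC15 1 (18 of 29), and that of the GTPases by IgG 1 (4 of 8) and anti-SIGLEC15 1 (3 of 8).

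The members highest in IgG 1 were Irf1, Eif2ak2, Oasl1, Oasl2, Rsad2, Bst2, Ifitm1, Ifitm2, Ifitm3, Usp18, Gbp2, Igtp, Irgm1 and Iigp1. That library was also the one with the least T cell RNA and the most hepatoma and neutrophil RNA, as given above; S100a8, a neutrophil alarmin, was at 157.3 RPKM there and at 11.43 to 71.0 elsewhere, and Afp, a fetal serum protein made by many hepatomas, at 1049 against 209.7 to 481.6. The macrophage and monocyte list of 14 genes summed to 1683 RPKM in IgG 1 against 422.5 to 801.8. Apoe, which hepatocytes also express, made up 1522 RPKM of that. Without Apoe the sums were 161.0, 180.4, 256.5 and 231.3, lowest in IgG 1. Much of these sums was Ly6c2 (52.86, 135.1, 194.5 and 141.6 RPKM), which is also on the list of interferon-induced genes used below. Of the 13 genes without Apoe, 5 were highest in IgG 1, 1 in IgG 2, 1 in anti-SIGLEC15 1 and 6 in anti-SIGLEC15 2. Adgre1, the gene of F4/80, had at most 8 reads in any library. The part of these cells in the levels of the 14 members was not tested.

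Markers of dendritic and natural killer cells did not all follow the members highest in anti-SIGLEC15 1. Of 11 conventional dendritic genes 5 were highest there, as were 4 of 9 plasmacytoid dendritic genes and 3 of 5 natural killer genes. Several of these were at a few reads: Flt3 had 1, 6, 34 and 7 reads, Clec9a 0, 2, 11 and 5, Siglech, which marks plasmacytoid dendritic cells, 1, 0, 10 and 0, and Klrb1c, which encodes NK1.1, 0, 5, 34 and 6. Itgax, the gene of CD11c, was at 1.55, 3.14, 12.22 and 4.05 RPKM. Other genes of the lists peaked elsewhere: Xcr1 had 48, 161, 90 and 137 reads, Zbtb46 49, 48, 45 and 137, and Klre1, a natural killer receptor gene, 518, 1908, 1717 and 1953. The summed level of the plasmacytoid list, 239.7, 105.1, 143.8 and 107.3 RPKM, was highest in IgG 1. Most of it came from Ly6d and from Bst2, itself one of the 14 members highest in IgG 1. Without both it was 15.57, 28.29, 20.38 and 22.47, most of which was Runx2 (8.69, 22.69, 14.07 and 18.96 RPKM). The conventional dendritic list, at 390.4, 142.6, 162.8 and 155.0 RPKM, was likewise mostly Cd74 and the class II genes H2-Aa and H2-Ab1. Without them it summed to 30.36, 63.05, 45.13 and 57.49, most of which was Ccr7 (27.38, 56.55, 29.05 and 49.52 RPKM). Of the 8 genes left, 0 were highest in IgG 1, 2 in IgG 2, 5 in anti-SIGLEC15 1 and 1 in anti-SIGLEC15 2. The part of these cells in the levels of Ifit1, Ifit3 and Isg15 was not tested.

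**Figure D4:**
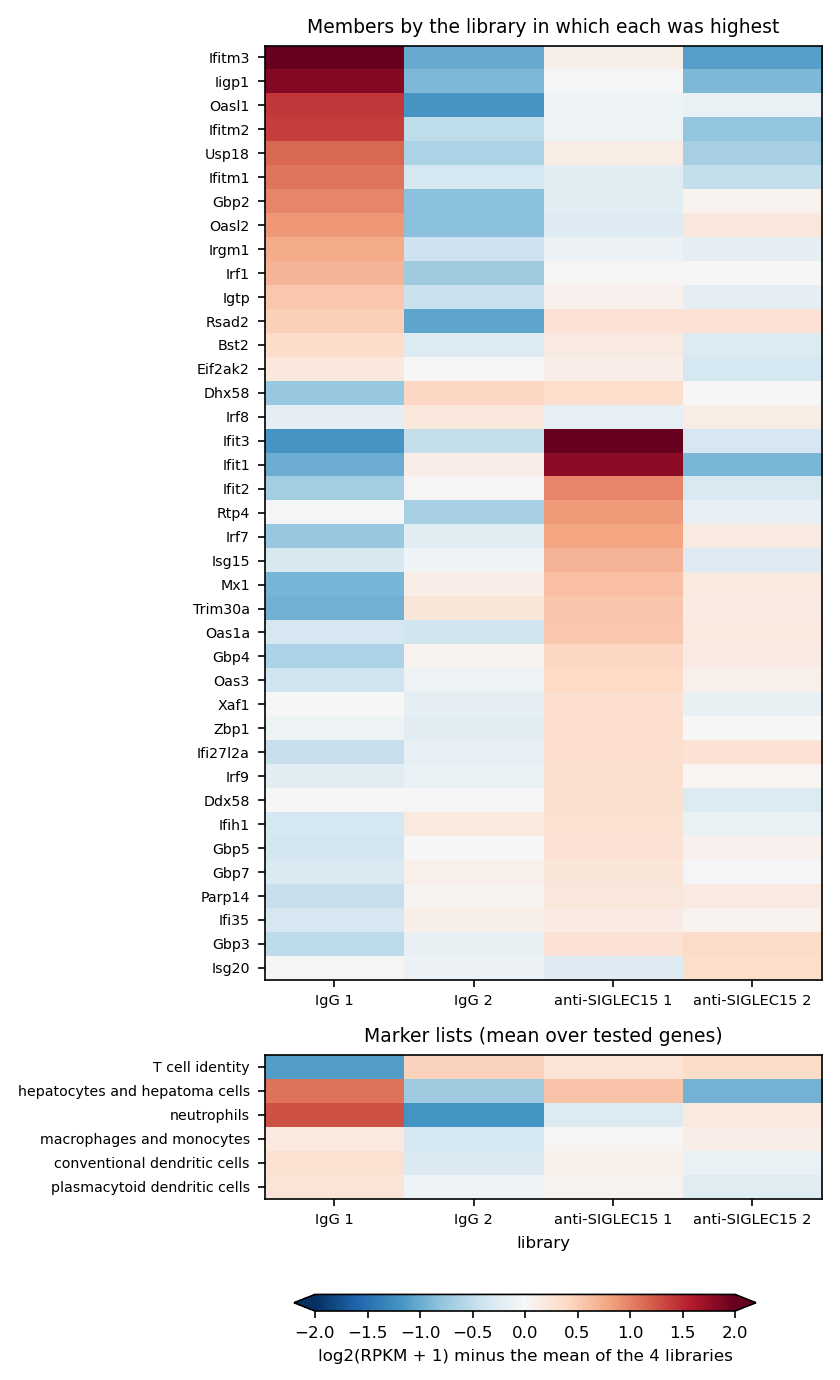
Heat map of log2(RPKM + 1) minus the mean of the 4 libraries for the 39 tested members, sorted by the library in which each was highest, and for 6 marker lists (mean over each list's tested genes); colours end at 2 log2 units either way. The upper block (14 members) is red in IgG 1, where the T cell list is blue and the hepatoma and neutrophil lists are red; the lower block (21 members) is red in anti-SIGLEC15 1.

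The counts depended on which library was left out. Without IgG 1, 35 of 39 members had a positive log2 fold change, against 52.1% of all genes, all 8 GTPases among them. Both anti-SIGLEC15 libraries then lay above IgG 2 for 22 members (56.4%), against 26.0% of all genes. They lay below it for 2, against 25.9% of all genes. In that comparison 125 genes passed the limma test and none was a member. Without IgG 2, the anti-SIGLEC15 libraries lay above IgG 1 for 21 members (53.8%), against 45.4% of all genes. For 14 members they lay below it, against 36.2% of all genes. There 11 members passed at adjusted p under 0.05, against 17.1% of all genes: Irf7, Mx1, Ifi27l2a and Trim30a were higher than in IgG 1, and Oasl1, Ifitm1, Ifitm2, Ifitm3, Usp18, Gbp2 and Iigp1 were lower. Without anti-SIGLEC15 2, 22 members lay above both IgG libraries, against 36.8% of all genes, and 1 lay below, against 8.5%. Without anti-SIGLEC15 1, 13 lay above and 7 below, against 19.2% and 37.9% of all genes. These fits take the lone library of a treatment to vary like the other pair.

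Scaling the libraries to their T cell content moved the levels of the whole transcriptome. Each library was divided by the geometric mean RPKM of its T cell identity genes, taken relative to that of all 4 libraries. The median log2 fold change of all genes was then −0.59, and that of the members −0.35, which is 0.24 above it. The distance was 0.21 on the RPKM scale. On the T cell scale only Mx1 kept both anti-SIGLEC15 libraries above both IgG libraries (1 of 39 members, 2.69% of all genes). Its margin was narrow, since 1.302 RPKM in IgG 1 and 3.984 in anti-SIGLEC15 2, divided by 0.4386 and 1.32, were nearly equal. Both anti-SIGLEC15 libraries lay below both IgG libraries for 0 members (10.2% of all genes). A positive log2 fold change was found in 10 of 39 members, against 7.85% of all genes. Among all genes with non-overlapping groups, those higher under anti-SIGLEC15 made up 66.8% on the RPKM scale, 46.9% with median-of-ratios scaling and 20.9% on the T cell scale. With median-of-ratios scaling 13 members were higher in both anti-SIGLEC15 libraries (10.7% of all genes) and 0 were lower (12.1%).

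The interferons themselves were represented mainly by Ifng. Of 17 ligand genes listed, 12 were in the files, and Ifng and Ifnl3 alone were abundant enough to test. Ifng was at 59.41, 170.5, 174.4 and 180 RPKM, so that IgG 1 was low and the other 3 libraries lay close together (log2 fold change 0.81, SE 0.53). Its groups did not overlap, though the gap between IgG 2 and anti-SIGLEC15 1 was only 170.5 to 174.4 RPKM. On the T cell scale Ifng was also higher in both anti-SIGLEC15 libraries, an arrangement found in 2.69% of all genes there. That margin was narrow too, since 59.41 RPKM in IgG 1 and 180 in anti-SIGLEC15 2, divided by 0.4386 and 1.32, were nearly equal. Ifnb1 had 8, 1, 1 and 3 reads and Ifne none in any library. Ifnl3, a type III interferon gene, was at 4.93, 3.10, 1.75 and 1.97 RPKM, from 46, 28, 16 and 17 reads, and was lower in both anti-SIGLEC15 libraries (log2 fold change −0.79, SE 0.33).

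Receptor and signalling genes had a median log2 fold change of 0.37 over 16 tested, with 6 higher in both anti-SIGLEC15 libraries (Jak2 and Socs1 among them; 12.1% of all genes), 0 lower (6.02%) and 0 passing the test. On the T cell scale 0 of the 16 were higher or lower in both (2.69% and 10.2% of all genes). Jak2, a kinase of the interferon gamma receptor, was at 19.35, 20.02, 20.54 and 26.06 RPKM (log2 fold change 0.22, SE 0.27), and Socs1, a feedback inhibitor of JAK kinases, at 4.68, 7.78, 10.84 and 11.07 (0.76, SE 0.32). Stat2, used by type I and III receptors, was at 5.94, 4.06, 5.72 and 4.12 RPKM, with replicate 1 above replicate 2 in both treatments. The type I receptor chains Ifnar1 (11.86, 18.62, 17.41 and 27.34 RPKM) and Ifnar2 (6.90, 3.23, 6.09 and 4.43) and the interferon gamma receptor chains Ifngr1 (89.77, 160.7, 159.9 and 217.0) and Ifngr2 (10.34, 1.63, 4.28 and 2.27) had overlapping groups. Ifngr2 was highest in IgG 1, as the GTPases Gbp2 and Iigp1 were. Upstream sensing genes had a median of 0.10 over 10 tested, and Traf3 was the only one with non-overlapping groups.

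A further list of 81 interferon-induced genes that are not members had 58 tested, of which 20 were higher in both anti-SIGLEC15 libraries (12.1% of all genes), 0 were lower (6.02%) and 0 passed the test. On the T cell scale 12 were higher (2.69% of all genes) and 1 was lower (10.2%). Its median log2 fold change was 0.30, and 31 of the 58 were highest in anti-SIGLEC15 1 and 14 in IgG 1, against 32.1% and 34.0% of all genes. Ifit1bl1, which lies between Ifit3 and Ifit1 on chromosome 19, was at 0.331, 1.63, 6.54 and 2.23 RPKM (log2 fold change 1.40, SE 0.57). Slfn2, a Schlafen protein that maintains T cell quiescence, was at 3.30, 3.84, 6.28 and 6.19 RPKM (0.67, SE 0.27). The nucleic acid-binding PYHIN genes Ifi208 (0.214, 0.834, 3.68 and 1.51 RPKM; 1.20, SE 0.45) and Ifi213 (0.292, 1.65, 5.44 and 2.65; 1.39, SE 0.50) were also separated, Ifi208 having entered the test only through the anti-SIGLEC15 libraries. In all 4 genes IgG 1 was the lowest library.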

How the data were processed

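Each of the 4 libraries came as one table with 1 value for each of 36464 gene IDs. Symbols were taken from GENCODE M21, where 78 of the IDs had none. The libraries were made from bead-enriched (oligo-coated beads) RNA and sequenced on a DNBSEQ-G50, per the labels' protocols; builds GRCm38 and mm10 are named in the submitters' processing notes, and the aligner, counter, annotation and strand setting are not stated in what was used here. The unit of the deposited values is not labelled in the files and was settled from the values: multiplied by the exon length of the gene in GENCODE M21, low values were whole multiples of 1 step in 98.92% to 98.97% of genes below 1000 reads (tolerance 0.02 reads), so the authors' values are read as RPKM. Read counts and totals were recovered from those steps. 

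Genes at 1 RPKM or more in at least 2 libraries were tested with limma 3.58.1 (trend, robust; R 4.3.3) on log2(RPKM + 1), with Benjamini-Hochberg adjustment over all 12484 and a threshold of 0.05. A gene's groups were called non-overlapping when both libraries of one treatment lay beyond both of the other. Alternatives were a pseudocount of 0.1, no filter, a filter at 5 RPKM, median-of-ratios scaling, scaling to T cell identity genes, limma-voom on recovered reads (at least 10), a replicate block and leaving out each library. The script was tested on simulated data. The members and all lists were chosen with earlier results of these data known. Values per library are given for members with non-overlapping groups, for the 2 most abundant members of each role and for a few chosen genes, and other values by range or where they add to a group; of genes outside the set, a fixed group of receptor and signalling genes and the 5 with the smallest unadjusted p among those with non-overlapping groups are named, Jak2 and Socs1 were added after their values were seen, and 1 signalling gene is not reported here. Promoters are RefSeq's for GRCm38.p6 and coordinates of genes are GENCODE M21's.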

Additional observations from a re-analysis of the deposited data

How the results depend on the processing

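Genes passing the test numbered 0 of 12484 and stayed at 0 with a pseudocount of 0.1, without the filter, with the filter at 5 RPKM, with median-of-ratios scaling, with limma-voom and with a replicate block, and were 6 of 12066 under T cell scaling; leaving out each library gave 0 to 2129. Members higher in both anti-SIGLEC15 libraries numbered 12 of 39 (12.1% of all genes), and 7 of 23 with the filter at 5 RPKM (11.4%). Under T cell scaling they numbered 1 (2.69%), and with each library left out 13 to 22 (19.2% to 45.4%). Leaving out a library can only raise such a count. The median log2 fold change of members was 0.22, and −0.35 under T cell scaling, where that of all genes was −0.59; it was 0.14 to 0.43 with each library left out. The class difference of 0.30 ran from −0.03 to 0.50 with each library left out. The replicate numbers share only a number in the labels; deviations of same-numbered libraries had a correlation of 0.330 across genes. With the replicate block the members' median was 0.22, 12 members were higher, and no call changed. Of 182 values over 17 named genes under the alternatives, 162 kept their direction and side of the threshold. Of the 17, 12 were named because their groups did not overlap, so leaving out a library could not reverse them. The count is therefore no measure of robustness. Reversed under T cell scaling were Irf9 (−0.27), Zbp1 (−0.35), Ifi27l2a (−0.08), Parp14 (−0.13), Gbp4 (−0.07), Gbp5 (−0.19), Irf1 (−0.68) and Isg15 (−0.29), and under median-of-ratios scaling Irf1 (−0.04). With each library left out, the log2 fold change ran from −0.67 to 0.72 for Irf1, −0.06 to 0.88 for Isg15, −0.48 to 2.21 for Ifit1, −2.49 to 0.51 for Ifitm3 and −1.05 to 0.77 for Gbp2. The 5 values that newly passed were all without IgG 2: Irf7 (1.25, adjusted p 0.00403, limma), Mx1 (1.32), Ifi27l2a (0.77), Ifitm3 (−2.49) and Gbp2 (−1.05). Apart from what the construction of a setting changes (fewer samples, fewer genes, another scale), the cause was not tested. Members under 1 RPKM rest on few reads: Ifi44 had 78, 5, 21 and 11.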

Other observations

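The PYHIN family, nucleic acid-binding proteins encoded side by side on chromosome 1 and induced by interferons, was singled out after its values were seen. Of 9 genes tested, 5 were higher in both anti-SIGLEC15 libraries (12.1% of all genes), 0 were lower (6.02%) and 4 overlapped. The 5 include Ifi208, whose direction was set by the filter. On the T cell scale Ifi206, Ifi208, Ifi209 and Ifi213 were still higher in both (2.69% of all genes) and Mndal was not. Mndal and Ifi203 overlap on chromosome 1, so their reads may not be told apart. Ifi206 was at 0.736, 3.38, 6.82 and 3.97 RPKM in IgG 1, IgG 2, anti-SIGLEC15 1 and anti-SIGLEC15 2 (log2 fold change 1.18, SE 0.55). Ifi209 was at 2.09, 6.597, 13.09 and 7.74 RPKM (1.20, SE 0.53), and Mndal, the most abundant of those named here, at 19.79, 52.85, 63.97 and 56.46 (0.87, SE 0.50). In each of them IgG 1 was lowest and anti-SIGLEC15 1 highest. Among the overlapping genes, Aim2 (log2 fold change 0.11), Ifi203 (0.83) and Ifi211 (0.02) were lowest in IgG 1. Ifi204 was at 2.63, 0.416, 0.948 and 2.23 RPKM, with IgG 2 lowest. None of these genes passed the limma test (adjusted p 0.9999).

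The Schlafen gene Slfn4 differed from Slfn2 in the same way, at 12.88, 1.09, 5.34 and 12.01 RPKM (log2 fold change 0.75, SE 0.96). Its lowest library was IgG 2, which also had the lowest level of the neutrophil gene S100a8 (157.3, 11.43, 43.42 and 71.0 RPKM). Cxcl10, a chemokine induced by interferon gamma, was at 103.7, 19.41, 52.31 and 36.08 RPKM and Cxcl9 at 4.74, 1.09, 1.75 and 1.79, both highest in IgG 1 and lowest in IgG 2, the order seen for Gbp2 and Oasl1. Nlrc5, the transactivator of MHC class I genes, was instead lowest in IgG 1, at 9.71, 27.28, 30.93 and 30.39 RPKM (0.86, SE 0.51).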
